A study of Mus musculus with 10 samples.

Results

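The 43 genes described here are the cell cycle and mitosis genes of mouse progenitors cultured toward the T lineage. They were taken by name, without histone genes, from a list of 24062 genes counted in 10 RNA-seq libraries, and all 43 were among the 12221 genes that passed the filter on low counts (1 CPM or more, reads per 1000000 gene reads, in 2 or more libraries). They comprised 20 genes that act at the G1/S transition or in DNA replication, called S-phase members, and 23 genes that act in G2 or mitosis, called mitotic members.

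The libraries were made from LSK cells (Lin-SCA1+KIT+ marrow stem and progenitor cells) of C57BL/6J mice, isolated independently and cultured ex vivo. Cells grown on immobilized Notch ligand were sorted as DN1 (KIT++CD44+CD25-), DN2a (KIT++CD44+CD25+) or DN2b (KIT+CD44loCD25+), with n = 2 libraries per stage (replicate 1, with a label date of year 12, and replicate 2, of year 13). The no Notch control (IgG in the labels, wild type, day 14 of culture) had n = 4 libraries, named D1, D2, R1 and R2, and the labels do not explain the letters. IL-7 was given to the cultures that yielded DN2a and DN2b cells and not to those that yielded DN1 cells. Stage and cytokine therefore cannot be told apart. The paper describes IL-7, added at day 14, for cultures on ligand only. DN2a and DN2b thus also differ from the day 14 control in IL-7 and in time in culture. No separate sort of the control cells is described in the sources used here. The DN cells were sorted from each LSK replicate, DN2a and DN2b from the same culture condition, so these libraries are not shown to be separate cultures. DN2a and DN2b libraries share their label dates, whereas the DN1 dates are other days of the same years.

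The libraries held 12354635 to 35367925 reads assigned to genes, so that a count of 3 reads, used as the floor, corresponded to 0.0880 to 0.239 CPM, and every member was above it in every library. Levels are given as CPM scaled by TMM (trimmed mean of M values). Of the sort genes, Il2ra (CD25) followed the labels, at 18.9 to 23.2 CPM in DN1 and 1170 to 2175 CPM in DN2a and DN2b. Cd44 was at 116 and 159 CPM in DN1, 44.3 and 54.2 CPM in DN2a and 13.5 and 10.9 CPM in DN2b. Kit was at 368 and 319 CPM in DN1, 173 and 212 CPM in DN2a and 130 and 176 CPM in DN2b. The Kit values of DN2a and DN2b thus overlapped. The 12 T lineage markers summed to 3.64 to 12.0 CPM in the control, with Cd3e at 0 in all 4 libraries, and to 5063 and 6483 CPM in DN2b. The control libraries held 22960 to 75770 CPM of 11 neutrophil markers and 10580 to 23250 CPM of 11 monocyte and macrophage markers. DN2a and DN2b held 9.80 to 42.9 CPM of the neutrophil markers. Of the monocyte and macrophage markers, DN2a held 47.3 and 145 CPM and DN2b 63.6 and 296 CPM. Every comparison of a DN stage with the control is therefore also one between cultures of different cell composition, and in bulk RNA fewer cells of a type and less RNA per cell cannot be told apart. Of the DN1 libraries, replicate 1 held 2588 CPM of the neutrophil markers, 2401 CPM of 11 mast cell and basophil markers and 137 CPM of 11 erythroid markers, against 87.9, 595 and 1.35 CPM in replicate 2. The 12 NK and innate lymphoid markers summed to 158 to 424 CPM in the control, 2484 and 637 CPM in DN1 and 1558 to 4494 CPM in DN2a and DN2b, with Ncr1 at 0 in the control, Prf1 in DN2a and Klrk1 in DN2b. The part of these cells in the values was not tested.

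Proliferating cells transcribe these genes in waves. E2F factors switch on the genes for replication licensing and nucleotide supply before S phase, and the DREAM and MuvB complexes, with B-MYB and FOXM1, hold back and then activate the mitotic genes through CHR elements (cell cycle genes homology regions) and neighbouring CCAAT boxes that bind NF-Y. Early T cell precursors of the thymus divide repeatedly between the DN1 and DN2b stages, and such cells pass through both waves.

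The promoters of the members differed in these letters. RefSeq promoter sequences (GRCm38.p6, the assembly also known as mm10, 250 bases before to 50 bases after the start site) were matched by symbol for 36 of the 43 members, which had 38 promoters. Mcm4, Ccne2, Ccna2, Cdc25c, Aurkb, Kif20a and Tpx2 had no match. E2F letters (TTTCCCGC, TTTCGCGC, TTTGCCGC or TTTGGCGC, either strand) were found for 8 of 18 S-phase members and 1 of 18 mitotic members, Cdk1, against 2.27% of all 32851 promoters in the table. CHR letters (TTTGAA or TTCGAA, either strand) were found for 4 of 18 S-phase members and 14 of 18 mitotic members, against 19.2% of all promoters. The letters CCAAT were found on either strand for 11 of 18 and 16 of 18, against 37.4%. CHR and CCAAT letters together were found for 4 of 18 and 14 of 18, against 7.53%. A member was counted when any of its promoters matched, whereas the percentages are of single promoters. The CHR letters of E2f2 lay in only 1 of its promoters. A match says only that these letters lie in the window, and a window without one says nothing of the factor.

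The 160 bases that end 1 base before the start site are shown for 3 S-phase members with E2F letters and for 5 mitotic members with CHR letters. Capitals mark every E2F, CHR and CCAAT match on either strand, read 5′ to 3′ on the gene's strand, and matches that overlap run together, as the E2F letters of both strands do in Mcm6 and Mcm5. The stretches lie at chr1:128359706-128359865 (minus strand), chr8:75109349-75109508 (plus strand) and chr11:98907991-98908150 (plus strand) for the S-phase members, and at chr10:69352913-69353072 (minus strand), chr19:37376222-37376381 (plus strand), chr2:164769769-164769928 (plus strand), chr11:99024190-99024349 (minus strand) and chr7:135716380-135716539 (minus strand) for the mitotic members.
Mcm6: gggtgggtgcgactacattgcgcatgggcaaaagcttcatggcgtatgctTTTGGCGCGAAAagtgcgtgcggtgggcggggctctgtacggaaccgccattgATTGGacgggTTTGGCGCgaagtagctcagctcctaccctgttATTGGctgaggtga
Mcm5: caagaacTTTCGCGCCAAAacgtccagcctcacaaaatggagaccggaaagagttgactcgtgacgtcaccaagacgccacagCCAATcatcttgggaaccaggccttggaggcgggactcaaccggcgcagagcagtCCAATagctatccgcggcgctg
Cdc6: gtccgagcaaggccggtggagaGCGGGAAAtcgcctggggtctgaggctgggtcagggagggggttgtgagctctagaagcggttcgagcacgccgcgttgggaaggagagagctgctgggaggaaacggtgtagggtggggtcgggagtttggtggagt
Cdk1: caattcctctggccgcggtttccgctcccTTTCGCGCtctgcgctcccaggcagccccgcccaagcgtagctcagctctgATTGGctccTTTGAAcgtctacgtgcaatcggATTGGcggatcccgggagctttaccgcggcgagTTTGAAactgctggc
Kif11: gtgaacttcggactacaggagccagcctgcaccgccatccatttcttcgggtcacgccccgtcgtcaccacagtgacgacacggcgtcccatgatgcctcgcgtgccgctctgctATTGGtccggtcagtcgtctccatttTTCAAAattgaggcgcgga
Ube2c: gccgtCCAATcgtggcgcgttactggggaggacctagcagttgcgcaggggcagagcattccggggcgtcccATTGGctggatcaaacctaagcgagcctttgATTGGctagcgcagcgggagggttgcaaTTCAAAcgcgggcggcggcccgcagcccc
Top2a: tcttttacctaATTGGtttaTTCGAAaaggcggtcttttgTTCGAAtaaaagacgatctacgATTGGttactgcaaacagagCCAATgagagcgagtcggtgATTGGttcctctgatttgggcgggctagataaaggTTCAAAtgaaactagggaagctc
Mki67: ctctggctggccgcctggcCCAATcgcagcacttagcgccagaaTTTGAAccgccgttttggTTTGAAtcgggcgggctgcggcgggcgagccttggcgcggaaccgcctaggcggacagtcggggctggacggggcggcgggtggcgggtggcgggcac

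S-phase members were called higher than in the no Notch control in all 3 DN stages, and mitotic members were called higher in DN2a. The 8 members called higher in every stage were Chek1, Mcm3, Mcm4, Mcm5, Mcm6, Mcm7, Rrm1 and Tyms. The counts per stage are not a test of a difference between the stages. The test was the quasi-likelihood test of edgeR, and a member was called at a Benjamini-Hochberg adjusted p under 0.05, adjusted across the 12221 genes. In DN1, 9 S-phase members and 0 mitotic members were called higher, where 14.3% of all genes tested were, and 3 mitotic members had an unadjusted p under 0.05. In DN2a, 12 S-phase and 9 mitotic members were called higher, where 21.2% of all genes were. In DN2b, 10 S-phase members were called higher against 19.9% of all genes, and 0 mitotic members were called in either direction, with 3 at an unadjusted p under 0.05. DESeq2 called 0 mitotic members higher in DN1 and in DN2b as well, and 3 lower in DN2b. With R1 and R2 as the only controls, and also without control D2, edgeR called 1 mitotic member higher and 3 lower in DN2b, and without DN2b replicate 2 it called 1 higher. In DN1 it called 2 mitotic members higher without control D2. Called lower were E2f2 in all 3 stages and E2f8 in DN2b, where 17.0%, 24.3% and 22.5% of all genes were called lower in DN1, DN2a and DN2b. The 3 comparisons share the 4 control libraries, so that their calls are not independent of each other.

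**Figure D1:**
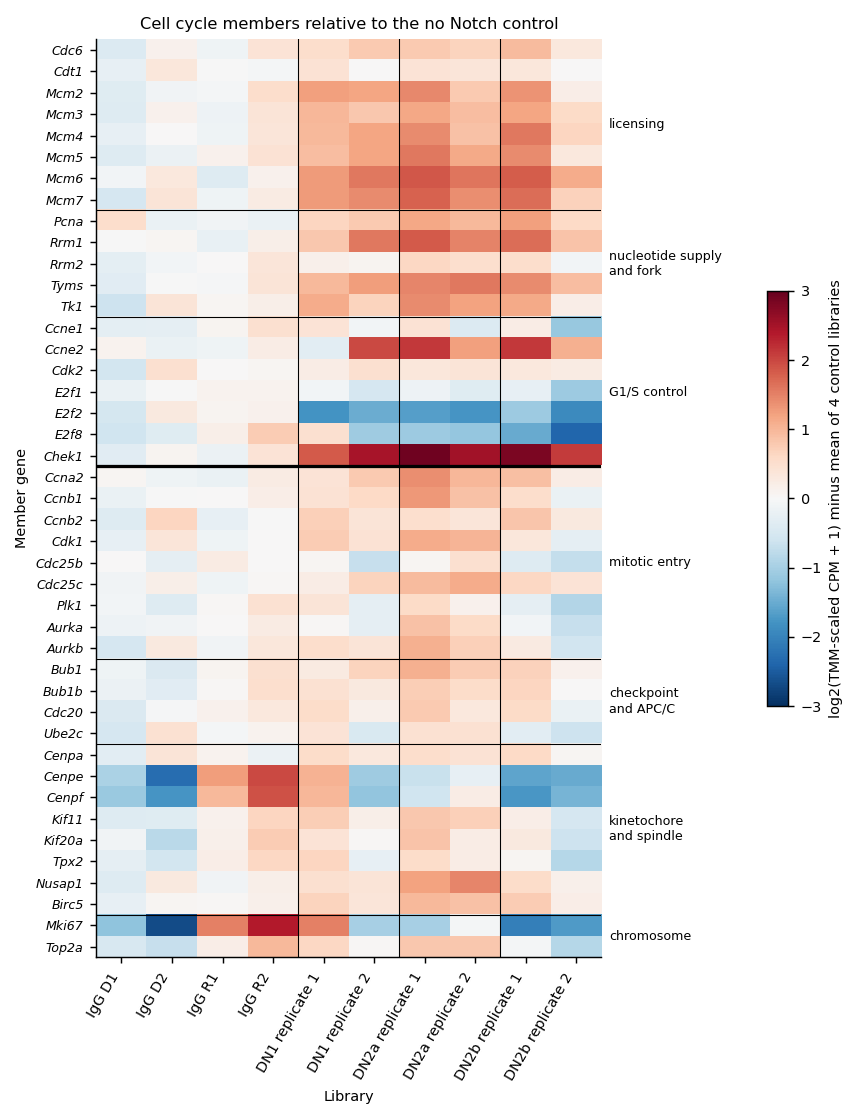
Heat map of the 43 members (rows, grouped by role, with the thick line between S-phase and mitotic members) in the 10 libraries (columns), as log2(TMM-scaled CPM + 1) minus the mean of the 4 control libraries. Chek1 and the Mcm genes are red in all 6 DN libraries and E2f2 is blue in all 6, whereas Cenpe, Cenpf and Mki67 differ most among the control libraries themselves.

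The licensing members load the replicative helicase onto origins. Mcm6, a subunit of that helicase, was at 267, 350, 216 and 310 CPM in control libraries D1, D2, R1 and R2. It was at 678 and 850 CPM in DN1 replicates 1 and 2, at 1018 and 861 CPM in DN2a and at 996 and 613 CPM in DN2b. All 6 DN libraries thus lay above all 4 controls. The log2FC over control was 1.42 ± 0.28 (SE) in DN1 (adjusted p = 0.0057), 1.72 ± 0.28 in DN2a (adjusted p = 0.00146) and 1.49 ± 0.28 in DN2b (adjusted p = 0.00297). Mcm7 was at 166 to 305 CPM in the control, at 572 and 624 CPM in DN1, at 803 and 618 CPM in DN2a and at 748 and 382 CPM in DN2b, again without overlap. Its log2FC was 1.31 ± 0.32 (adjusted p = 0.0154), 1.56 ± 0.32 (adjusted p = 0.0047) and 1.23 ± 0.32 (adjusted p = 0.0148). The Mcm7 call in DN2b was lost without DN2b replicate 1 (log2FC 0.67) and with D1 and D2 as the only controls, and that in DN1 without DN1 replicate 2 and with the same controls. For the other helicase subunits the log2FC in DN1 was 1.17 ± 0.35 for Mcm2, 0.88 ± 0.27 for Mcm3, 1.07 ± 0.30 for Mcm4 and 1.03 ± 0.34 for Mcm5, with adjusted p from 0.0254 (Mcm4) to 0.0452 (Mcm5). These DN1 calls were kept under 11, 8, 12 and 8 of 18 other settings. In DN2a these 4 were called as well, with log2FC between 1.03 (Mcm3) and 1.34 (Mcm5) and adjusted p from 0.0109 (Mcm5) to 0.0288 (Mcm2). In DN2b, Mcm3 (log2FC 0.88, adjusted p = 0.0273) and Mcm4 (1.18, adjusted p = 0.0127) were called. Their DN2b calls were kept under 12 and 17 of 18 other settings, with log2FC down to 0.55 and 0.63. Mcm5 stood at the threshold (log2FC 0.94 ± 0.34, adjusted p = 0.05, groups overlapping and called under 4 of 18 other settings), and Mcm2 was not called.

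By library, the 4 subunits differed in whether DN2b overlapped the control. Mcm2 was at 125 to 232 CPM in the control, at 380 and 364 CPM in DN1, at 437 and 281 CPM in DN2a and at 414 and 184 CPM in DN2b. Mcm3 was at 196 to 337 CPM in the control, at 511 and 446 CPM in DN1, 575 and 489 CPM in DN2a and 577 and 382 CPM in DN2b. Mcm4 was at 131 to 202 CPM in the control, and at 306 and 360 CPM (DN1), 420 and 291 CPM (DN2a) and 472 and 245 CPM (DN2b). All DN libraries lay above the control for Mcm3 and Mcm4, whereas DN2b replicate 2 lay within the control range for Mcm2. It did so for Mcm5 too, which was at 198 to 347 CPM in the control, at 492 and 586 CPM in DN1, 776 and 565 CPM in DN2a and 692 and 321 CPM in DN2b.

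Cdc6 and Cdt1, which recruit the helicase to origins, were not called by edgeR with all libraries. Over control, Cdc6 was called higher under 1, 2 and 1 of 18 other settings in DN1, DN2a and DN2b, and Cdt1 under none. Cdc6 had 32.4 to 58.0 CPM in the 4 control libraries and means of 69.3 to 72.4 CPM in the DN stages (n = 2 each). Cdt1 differed least over the 10 libraries of all members, from 73.4 CPM (control D1) to 119 CPM (DN1 replicate 1), a 1.62-fold range.

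Among the genes for nucleotide supply and the replication fork, Rrm1 and Tyms were called higher in every DN stage. Rrm1, the large subunit of ribonucleotide reductase, was at 295, 307, 252 and 331 CPM in the control, at 521 and 880 CPM in DN1, at 1058 and 831 CPM in DN2a and at 940 and 531 CPM in DN2b. All 6 DN libraries were above all 4 controls. The log2FC was 1.24 ± 0.30 in DN1 (adjusted p = 0.0138), 1.67 ± 0.30 in DN2a (adjusted p = 0.00232) and 1.31 ± 0.30 in DN2b (adjusted p = 0.00775). The Rrm1 calls were kept under 16, 18 and 17 of 18 other settings, with log2FC down to 0.82 in DN1 and 0.85 in DN2b. Tyms, thymidylate synthase, was at 44.7 to 74.4 CPM in the control and at 109 to 171 CPM in the 6 DN libraries, with log2FC of 1.11 ± 0.24 (DN1, adjusted p = 0.00886), 1.52 ± 0.24 (DN2a, adjusted p = 0.00135) and 1.18 ± 0.24 (DN2b, adjusted p = 0.00453). The small reductase subunit Rrm2 was not called, with means of 265 ± 51.2 CPM (SD, n = 4) in the control, 285 CPM in DN1, 389 CPM in DN2a and 314 CPM in DN2b. Tk1, the salvage thymidine kinase, was called in DN2a (log2FC 1.28 ± 0.33, adjusted p = 0.0118), where both libraries (152 and 133 CPM) lay above the control (36.6 to 74.2 CPM).

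Pcna, the sliding clamp of the replication fork, had the highest level per kilobase of coding transcript of all members in every group, at 293 CPM per kb in the control and 602 CPM per kb in DN2a. It was at 626 CPM in control D1 and at 377, 403 and 376 CPM in D2, R1 and R2. The DN libraries held 678 and 747 CPM in DN1, 973 and 855 CPM in DN2a, and 1014 and 655 CPM in DN2b. It was called in DN2a (log2FC 1.04 ± 0.29, adjusted p = 0.0161) and DN2b (log2FC 0.91 ± 0.29, adjusted p = 0.0301). The Pcna calls were kept under 15 and 13 of 18 other settings, with log2FC down to 0.82 and 0.56. Every DN library lay above every control, D1 included.

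The G1/S control genes did not move as a group: of 7, Chek1 rose in every DN stage, E2f2 fell in every one, and Ccne1, Cdk2 and E2f1 were not called by edgeR with all libraries. E2f1 was called lower in DN2b under 2 of 18 other settings, and Ccne1 and Cdk2 in no stage under any of them. Chek1, the kinase that halts the cycle when forks stall, showed the highest log2FC of all members in each comparison with the control. It was at 11.6, 15.9, 13.1 and 20.2 CPM in D1, D2, R1 and R2. The DN libraries held 55.6 and 87.1 CPM in DN1, 119 and 90.0 CPM in DN2a, and 111 and 67.5 CPM in DN2b. The lowest DN value was above the highest control value, and the log2FC was 2.23 ± 0.30 in DN1 (adjusted p = 0.00121), 2.78 ± 0.30 in DN2a (adjusted p = 0.000268) and 2.55 ± 0.30 in DN2b (adjusted p = 0.000397). It was called under all 18 other settings in each of the 3 comparisons.

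E2f2, an activating E2F factor, was at 74.2, 132, 113 and 117 CPM in the control, and at 30.0 and 37.5 CPM in DN1, 33.6 and 30.4 CPM in DN2a and 50.03 and 27.5 CPM in DN2b. Every DN library was below every control library. The log2FC was -1.69 ± 0.32 in DN1 (adjusted p = 0.00523), -1.77 ± 0.33 in DN2a (adjusted p = 0.00266) and -1.49 ± 0.32 in DN2b (adjusted p = 0.00591). E2f1, another activator, was at 43.4 to 54.0 CPM in the control and had means of 32.3 to 41.5 CPM in the DN stages. E2f8, a repressor of E2F target genes, was at 38.7, 45.5, 66.5 and 100 CPM in the control, at 81.7 and 27.6 CPM in DN1, at 27.1 and 25.8 CPM in DN2a and at 19.9 and 10.5 CPM in DN2b. Of the DN libraries, DN1 replicate 1 alone reached the control values, and the fall was called in DN2b (log2FC -2.04 ± 0.55, adjusted p = 0.0165). Without DN2b replicate 2, both DN2b calls were lost, with a log2FC of -1.12 for E2f2 and -1.65 for E2f8, and DN2b replicate 1 lay below every control library for both. The E2f8 call was also lost with D1 and D2 as the only controls (log2FC -1.50).

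Ccne2, one of the E-type cyclins that start S phase with CDK2, was at 11.8 to 16.4 CPM in the control and at 63.2 and 33.8 CPM in DN2a and 63.6 and 29.9 CPM in DN2b. The DN1 libraries held 10.9 CPM (replicate 1) and 56.9 CPM (replicate 2), a 5.20-fold difference, so that one lay below the control and the other far above. It was called in DN2a (log2FC 1.81 ± 0.55, adjusted p = 0.0244) and DN2b (log2FC 1.75 ± 0.55, adjusted p = 0.0296). The calls of Ccne2 were lost under 4 of 18 other settings in DN2a, among them without DN2a replicate 1 (log2FC 1.29), and under 6 in DN2b, among them without DN2b replicate 1 (log2FC 1.11). Both were lost with the D or the R controls alone and without control R1, and that in DN2b also without D1 or D2. Its paralog Ccne1 had means of 33.6 CPM in the control and 37.6, 34.5 and 26.4 CPM in DN1, DN2a and DN2b, and their partner kinase Cdk2 means of 65.4 CPM in the control and 77.1 to 82.0 CPM in the DN stages.

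Of the mitotic entry genes, 6 of 9 were called higher in DN2a, where 21.2% of all genes were. Without DN2a replicate 1, 2 of the 23 mitotic members were called higher in DN2a, against 9 with it. Cdk1, the kinase that drives entry into mitosis, was at 112, 171, 120 and 133 CPM in the control, at 225 and 181 CPM in DN1, at 286 and 269 CPM in DN2a and at 167 and 110 CPM in DN2b. The DN2a libraries were the highest of the 10, and DN2b overlapped the control. The log2FC of DN2a over control was 1.05 ± 0.24 (adjusted p = 0.00775). The mitotic cyclins Ccna2 (134 to 183 CPM in the control and 405 and 308 CPM in DN2a, log2FC 1.20 ± 0.25, adjusted p = 0.00511) and Ccnb1 (1.11 ± 0.24, adjusted p = 0.00609) were called too, whereas Ccnb2 was not, at means of 102 CPM in the control and 132 to 146 CPM in the DN stages. Ccnb1 was at 109 to 146 CPM in the control, at 171 and 191 CPM in DN1, at 315 and 233 CPM in DN2a and at 183 and 110 CPM in DN2b. Cdc25c, a phosphatase that activates CDK1, was called (log2FC 1.09 ± 0.24, adjusted p = 0.00576) at a mean of 27.6 CPM in DN2a and 13.0 CPM in the control, but its paralog Cdc25b had means of 39.3 CPM and 32.1 CPM and was not.

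The Aurora kinases act later, on the spindle and the centromeres. Aurka, the kinase of centrosomes and spindle poles, was at 71.8, 74.0, 79.6 and 93.9 CPM in the control, at 81.7 and 65.3 CPM in DN1, at 147 and 118 CPM in DN2a and at 75.5 and 48.5 CPM in DN2b. Only the DN2a libraries stood above the control values (log2FC 0.73 ± 0.23, adjusted p = 0.0297). The Aurka call was lost under 6 of 18 other settings, namely without either DN2a library (log2FC 0.57 without replicate 1 and 0.88 without replicate 2), without control D1 or R1, and with the D or the R controls alone. Aurkb, the kinase of the chromosomal passenger complex, was at 60.2 to 108 CPM in the control and at 180 and 141 CPM in DN2a, where it was called (log2FC 0.87 ± 0.30, adjusted p = 0.0408). The Aurkb call was lost under the same 6 settings and without DN1 replicate 1. Plk1, which acts from mitotic entry to cytokinesis, was not called, at means of 100 CPM in the control and 105, 126 and 67.5 CPM in DN1, DN2a and DN2b.

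Among the spindle checkpoint and APC/C genes, which time the exit from mitosis, 1 of 4 was called in DN2a, near the 21.2% of all genes called higher. Bub1, a checkpoint kinase, had means of 53.8 ± 14.6 CPM (SD, n = 4) in the control and 100 ± 14.8 CPM (SD, n = 2) in DN2a (log2FC 0.89 ± 0.28, adjusted p = 0.0286). Its relative Bub1b had means of 87.4 CPM and 135 CPM, Cdc20, the activator of the APC/C ubiquitin ligase, 101 CPM and 149 CPM, and Ube2c, the ubiquitin-conjugating enzyme of that ligase, 108 CPM and 145 CPM. None of these 3 passed the test.

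Among the kinetochore and spindle genes, 2 of 8 were called in DN2a, near the 21.2% of all genes called higher there. Nusap1, which binds spindle microtubules, was at 53.5, 85.9, 65.2 and 79.4 CPM in the control, at 97.7 and 92.0 CPM in DN1, at 163 and 194 CPM in DN2a and at 102 and 77.2 CPM in DN2b, with a log2FC of 1.33 ± 0.23 in DN2a (adjusted p = 0.00201), the highest of the mitotic members. Birc5 (survivin, of the passenger complex) followed with 0.93 ± 0.22 (adjusted p = 0.00768), at 193 and 181 CPM in DN2a against 82.0 to 109 CPM in the control. Cenpa, the centromeric histone H3 variant, was at 101 CPM in the control and 127 to 139 CPM in the DN stages, and Kif11, the motor that separates spindle poles, at 90.4 CPM in the control, 148 CPM in DN2a and 80.2 CPM in DN2b. The cytokinesis motor Kif20a (58.5 CPM in the control, 81.9 CPM in DN2a) and the spindle assembly factor Tpx2 (108 CPM and 135 CPM) were not called either.

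**Figure D2:**
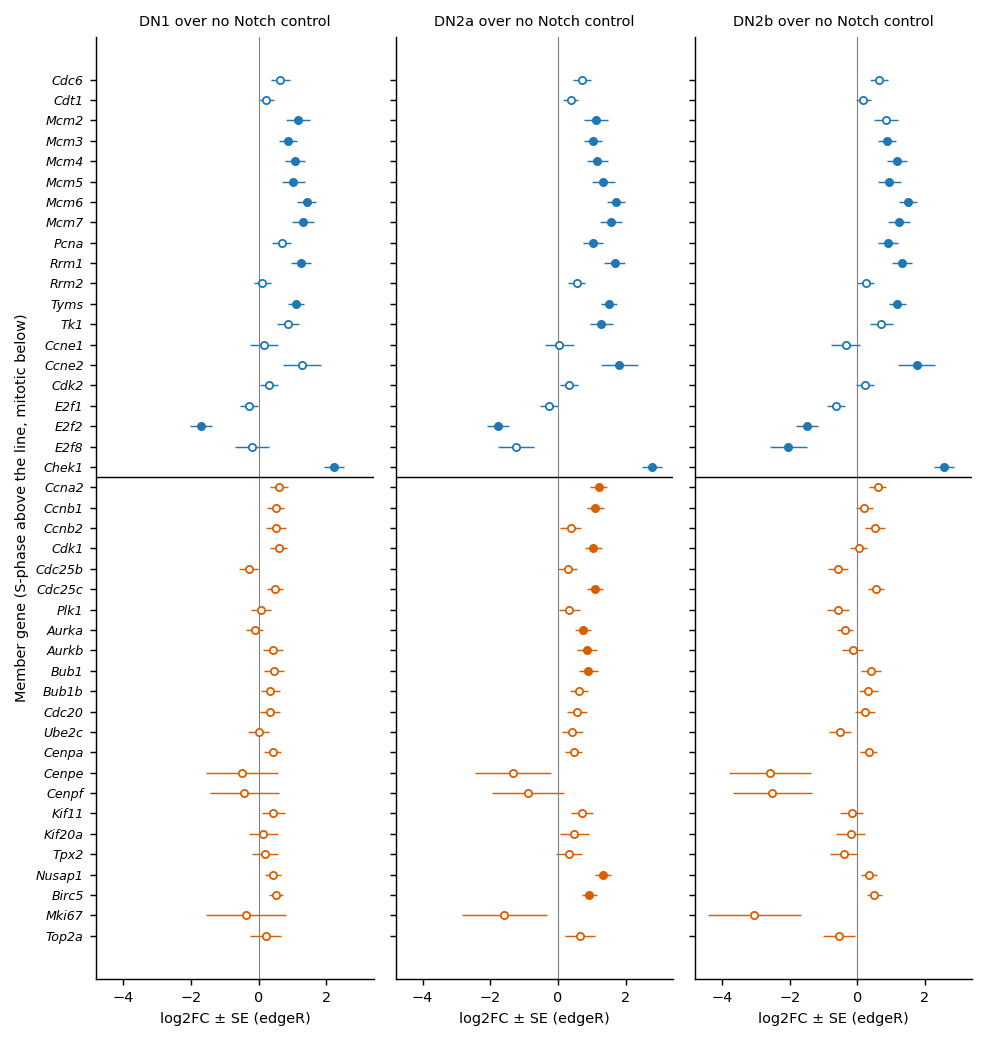
The log2FC ± SE of each member (edgeR, n = 2 DN libraries against n = 4 control libraries) in DN1, DN2a and DN2b over the no Notch control, with S-phase members in blue above the line, mitotic members in orange below it, and filled points at an adjusted p under 0.05. Mitotic members are filled only in DN2a (9 of 23), and Cenpe, Cenpf and Mki67 have the widest errors, as Mki67 in DN2b at -3.05 ± 1.38.

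The counts of calls moved with single libraries. DN1 had 10 calls, 7 without DN1 replicate 1 (the library with the neutrophil and mast cell markers), 3 (2 higher, against 9) without DN1 replicate 2, 6 without control R1, 4 with D1 and D2 as the only controls and 16, of which 4 were mitotic, with scaling to library size alone. That last scaling moved the median log2FC of all genes in DN1 from 0.01 to 0.27 and those of S-phase and mitotic members to 1.13 and 0.59. DN2a had 22 calls, and 8 without DN2a replicate 1, 2 of them mitotic. DN2b had 12 calls, 10 of them higher, and without DN2b replicate 1 it had 5, with 2 higher and 3 lower. The calls of single members over control were kept under 8 (Mcm3 and Mcm5) to 18 of 18 other settings in DN1, 11 (Aurkb) to 18 in DN2a and 4 (Mcm5) to 18 in DN2b.

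Over the members as groups, the median log2FC over control in DN1 was 0.87 for S-phase members and 0.34 for mitotic members. In DN2a the medians were 1.08 and 0.62, and in DN2b they were 0.87 and -0.13, where all genes tested had medians of 0.01, -0.05 and -0.05 in the 3 stages. The DN1 median of mitotic members was 0.12 without DN1 replicate 1 and 0.09 with R1 and R2 as the only controls. The DN2b medians turned on single libraries, at 0.29 and -0.58 without DN2b replicate 1 and at 1.17 and 0.23 without DN2b replicate 2, and the mitotic one was 0.24 with D1 and D2 as the only controls and 0.08 without R2. The control and DN libraries did not overlap, with the DN stage higher, for 12 S-phase and 7 mitotic members (DN1), 15 and 13 (DN2a), or 9 and 2 (DN2b), where 23.5%, 30.6% and 28.2% of all genes tested were so. The share of mitotic members was thus below that of all genes in DN2b.

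A wider set of cell cycle genes was counted by function, where 14.3%, 21.2% and 19.9% of all genes tested were called higher in the 3 stages and 17.0%, 24.3% and 22.5% lower. Of 35 other replication genes (further helicase, polymerase and origin components), 19 were called higher in DN1, 27 in DN2a and 23 in DN2b, and 0 lower. The highest log2FC among them was that of Dut, the dUTPase, in DN1 (1.58 ± 0.27, adjusted p = 0.00348) and that of Prim1, the primase subunit, in DN2a (2.36 ± 0.23, adjusted p = 0.00017) and DN2b (1.89 ± 0.23, adjusted p = 0.000427). Prim1 was at 24.8 to 35.4 CPM in the control and at 76.0 to 173 CPM in the DN libraries. Of 45 other mitosis genes, 6, 15 and 7 were called higher and 0, 0 and 3 lower, so that the share called higher was above that of all genes in DN2a and near it in DN1 and DN2b. Pbk, a mitotic kinase, led them in all 3 stages, from 31.1 to 52.6 CPM in the control to 156 and 188 CPM in DN2a (log2FC 2.04 ± 0.24, adjusted p = 0.000391). Sgol2, which protects centromeric cohesion, was the lowest in DN2b (log2FC -1.59 ± 0.40, adjusted p = 0.0113).

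Of 18 E2F and MuvB regulators, 3 were called higher in each stage, near the share of all genes given above, and 0, 1 and 2 lower, below it. Mycn, a MYC family factor kept in that list, was at 0.0293 to 0.415 CPM in the control, at 56.9 and 36.4 CPM in DN1, at 14.5 and 30.8 CPM in DN2a and at 5.54 and 10.9 CPM in DN2b. The control values lie around the floor of 3 reads, so its fitted log2FC of 7.91 ± 0.70 in DN1 (adjusted p = 0.000186) depends on the prior count. E2f7, the partner of E2F8 in repression, was at 12.2 to 20.5 CPM in the control, at 13.0 and 7.67 CPM in DN1 and at 1.51 to 1.97 CPM in the 4 DN2a and DN2b libraries. Its log2FC was -3.09 ± 0.42 in DN2a (adjusted p = 0.000698) and -3.30 ± 0.43 in DN2b (adjusted p = 0.000612). By edgeR it was also called lower in DN2b than in DN1 (log2FC -2.73 ± 0.45, adjusted p = 0.0205), as no member was. DESeq2 called 1 member, E2f8, lower in that comparison. Of 19 genes of the cell cycle ubiquitin ligases, 4, 10 and 10 were called higher and 0 lower, with Skp1a, a subunit of SCF ligases, leading in DN2a (log2FC 2.40 ± 0.37, adjusted p = 0.0013).

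Among the DN stages, no member passed the adjusted threshold by edgeR. DN2a over DN1 gave 0 calls among the members by edgeR and by DESeq2, with 2 at an unadjusted p under 0.05 by edgeR (Aurka and Nusap1) and 4 by DESeq2, where 0.196% of all genes were called higher and 0.205% lower. The largest log2FC was that of Nusap1 (0.91 ± 0.28, adjusted p = 0.263) and the lowest that of Mki67 (-1.21 ± 1.36, adjusted p = 0.788), which was 0.54 without DN1 replicate 1. The median was 0.20 for S-phase and 0.42 for mitotic members, and 0.01 and 0.20 with library size scaling. It was 0.06 for S-phase members without DN2a replicate 1 (mitotic 0.26) and 0.18 for mitotic members without DN1 replicate 2. Between the DN2a and DN1 libraries numbered 1, 17 of 20 S-phase members were higher in DN2a (median log2 ratio 0.38), and between those numbered 2, 9 of 20 (-0.03). Of the mitotic members, 17 and 22 of 23 were higher, with medians of 0.24 and 0.48. Of all genes, 49.65% and 51.6% were lower. DN2b over DN1 gave 0 calls by edgeR, with 1 at an unadjusted p under 0.05, where 1.01% of all genes were called higher and 0.892% lower, and 1 by DESeq2, E2f8 lower. The medians were 0.00 for S-phase and -0.30 for mitotic members (0.31 and 0.01 without DN2b replicate 2, -0.33 and -0.67 without DN2b replicate 1). The pairs differed for S-phase members, as 16 of 20 were higher in DN2b between the libraries numbered 1 (median log2 ratio 0.40) and 20 of 20 lower between those numbered 2 (-0.48). For mitotic members these medians were -0.11 and -0.51. The members ranged from Mki67 (-2.67 ± 1.44, adjusted p = 0.469) to Ccne2 (0.46 ± 0.66, adjusted p = 0.811).

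Between DN2a and DN2b, most mitotic members had lower values in DN2b, a count without a test, and no member was called. The median log2FC was -0.88 for mitotic and -0.24 for S-phase members. A negative value was found for 22 of 23 mitotic members, with Ccnb2 the exception, and for 18 of 20 S-phase members. Without DN2b replicate 2 the medians were -0.58 for mitotic and 0.08 for S-phase members, without DN2b replicate 1 they were -1.21 and -0.64, and without DN2a replicate 1 -0.68 and -0.11. The test gave 0 calls among the members by edgeR and by DESeq2, and edgeR called 0.0% of all genes higher and 0.0% lower in this comparison, while DESeq2 called 29 genes. At an unadjusted p under 0.05 there were 8 members by edgeR, all mitotic (Aurka, Nusap1, Cdk1, Ccnb1, Aurkb, Cdc25b, Ube2c and Plk1), and 10 by DESeq2. The DN2b libraries lay below both DN2a libraries for 18 of 23 mitotic and 5 of 20 S-phase members, where 15.8% of all genes did so. The lowest log2FC was that of Cenpf (-1.62 ± 1.22, adjusted p = 1.0) and the highest that of E2f2 (0.28 ± 0.35, adjusted p = 1.0).

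The same difference can be read within each label year, from separate libraries. Between the libraries numbered 1, 21 of 23 mitotic members were lower in DN2b than in DN2a, with a median log2 ratio of -0.60, and 14 of 20 S-phase members, with a median of -0.07. Between those numbered 2, 23 of 23 and 20 of 20 were lower, with medians of -1.08 and -0.54, where 50.6% and 52.6% of all genes were lower in the respective pairs. DN2b replicate 2 was low in both classes, since 20 of 20 S-phase members were higher in replicate 1, by a median of 1.79-fold, and 20 of 23 mitotic members, by 1.52-fold. It was also the shallowest of the 10, with 41.0% of its reads in the counter's summary lines. DN2b replicate 2 held 296 CPM of the monocyte and macrophage markers, against 63.6 CPM in DN2b replicate 1. The mast cell and basophil markers were at 463 and 261 CPM in replicates 2 and 1. The part of depth and of these cells in its values was not tested. The ratios of the 2 pairs were correlated across the 43 members (Pearson's r = 0.92), against 0.54 across the 6979 genes with a mean of at least 20 CPM. Genes of a program are not independent points and the points of a pair share 2 libraries, so these are descriptions. Aurka had log2 ratios of -0.96 (replicates 1) and -1.28 (replicates 2), Plk1 of -0.83 and -1.01, and Top2a of -0.86 and -1.66. Of the 45 other mitosis genes, 44 were lower in both pairs, and of the 35 other replication genes, 25. The share was 33.7% of all genes and 40.3% of the genes with a mean of at least 20 CPM.

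**Figure D3:**
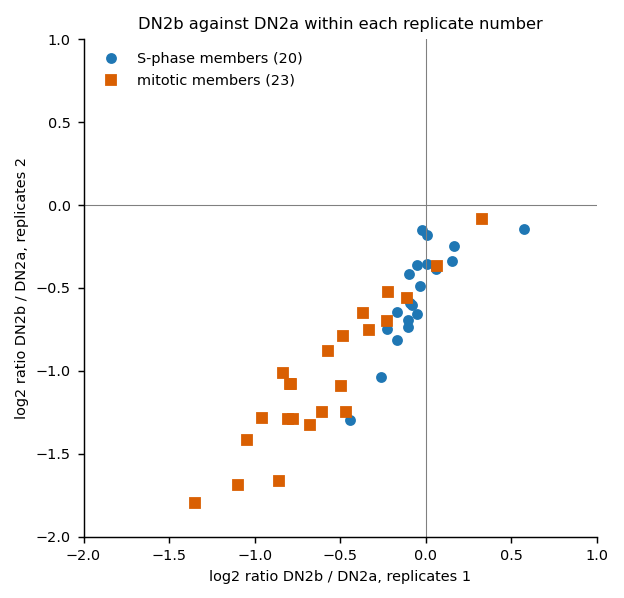
The log2 ratio of DN2b to DN2a (TMM-scaled CPM) for each of the 43 members, with the libraries numbered 1 on the horizontal axis and those numbered 2 on the vertical axis, S-phase members as blue circles and mitotic members as orange squares. Mitotic members lie between -1.35 and 0.33 on the horizontal axis and between -1.80 and -0.08 on the vertical axis, from Cenpf to Ccnb2, whereas S-phase members lie between -0.44 and 0.58 on the horizontal axis and between -0.14 and -1.30 on the vertical axis.

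The mean over S-phase members minus the mean over mitotic members, each of log2(TMM-scaled CPM + 1) in a library, put the members into 1 number per library. It was 0.51, 0.85, 0.21 and 0.18 in control libraries D1, D2, R1 and R2. It was 0.48 and 1.13 in DN1 (replicates 1 and 2), 0.81 and 0.57 in DN2a, and 1.33 and 1.04 in DN2b. Both DN2b libraries lay above all controls and both DN2a libraries, but DN1 replicate 2 lay between them, and the DN1 libraries spanned most of the range. As a score over the members it was given no test. With medians over the members in place of means, the difference between DN1 and control changed from 0.37 to -0.16 and that between DN2a and control from 0.25 to -0.01, so the sign of these 2 depends on the summary, whereas DN2b stayed above the control (0.75 and 0.38) and above DN2a (0.50 and 0.39).

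**Figure D4:**
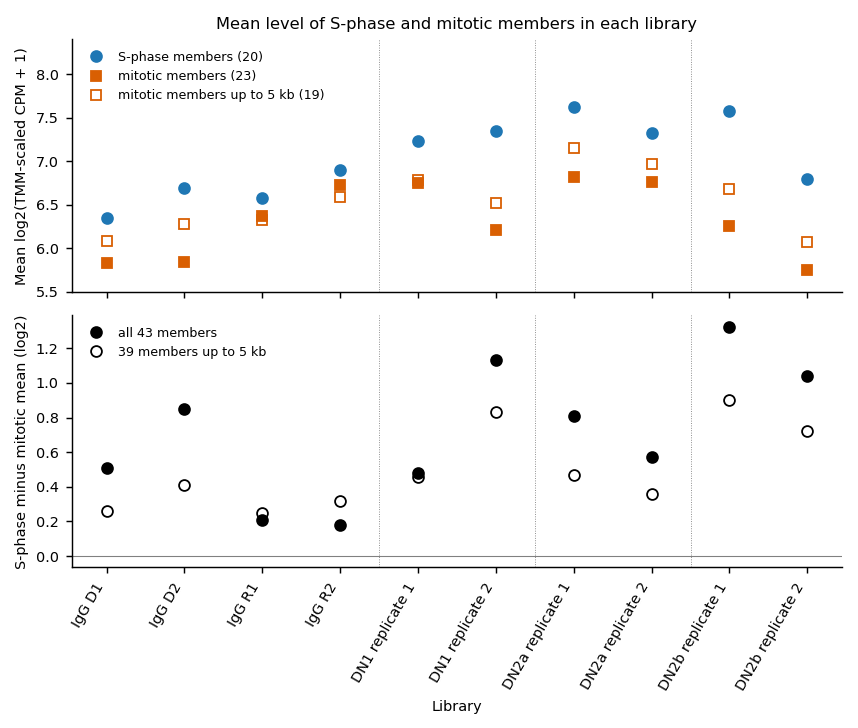
Top, mean log2(TMM-scaled CPM + 1) of the 20 S-phase members (circles), the 23 mitotic members (filled squares) and the 19 mitotic members with transcripts up to 5 kb (open squares) in each of the 10 libraries. Bottom, the S-phase mean minus the mitotic mean for all 43 members (filled) and for the 39 up to 5 kb (open), which runs from 0.18 (control R2) to 1.33 (DN2b replicate 1) for all members and from 0.25 to 0.90 for the shorter ones.

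The control libraries disagreed most in a small number of long mitotic transcripts. Mki67, which encodes the Ki-67 protein that coats mitotic chromosomes, was at 29.8 and 9.96 CPM in D1 and D2 and at 199 and 366 CPM in R1 and R2, a 36.7-fold range within 1 group. DN1 replicates 1 and 2 held 199 and 34.6 CPM, the DN2a libraries 34.1 and 66.8 CPM and the DN2b libraries 15.9 and 20.7 CPM. The control thus spanned all DN values, and with all libraries edgeR called this standard proliferation marker in no DN stage (in DN2b, log2FC -3.05 ± 1.38, adjusted p = 0.1). It was called lower in DN2b by DESeq2 (log2FC -3.05), with R1 and R2 as the only controls (-3.94) and without D2 (-3.42), and with D1 and D2 as the only controls its log2FC was -0.14.

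Cenpe, a kinetochore motor, was at 8.12, 2.63, 40.6 and 68.7 CPM in D1, D2, R1 and R2, and at 35.1 and 7.37 CPM in DN1, 10.1 and 13.8 CPM in DN2a and 4.87 and 5.17 CPM in DN2b. Cenpf, a protein of the outer kinetochore, was at 5.88, 3.41, 28.2 and 55.3 CPM in the control and at 28.9 and 5.63 CPM in DN1, 8.84 and 16.3 CPM in DN2a and 3.47 and 4.70 CPM in DN2b. Top2a, the topoisomerase that untangles sister chromatids, was at 204, 175, 327 and 559 CPM in the control, at 440 and 290 CPM in DN1, at 496 and 499 CPM in DN2a and at 274 and 158 CPM in DN2b. In all 4 genes R1 and R2 lay above D1 and D2, and DN1 replicate 1 above replicate 2.

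These 4 are the members with a coding transcript over 5 kb (longest protein-coding transcript of GENCODE vM21), at 10061 bases for Mki67, 7910 for Cenpe, 11130 for Cenpf and 5221 for Top2a. All are mitotic, as the longest S-phase member, E2f2, has 4739 bases. The ratio of R1 and R2 to D1 and D2 was 14.2 for Mki67, 10.2 for Cenpe, 8.98 for Cenpf and 2.34 for Top2a. For the other 39 members its log2 lay between -0.36 and 0.99, with a median of 0.21. Across the 43 members, log2 of this ratio and log2 of transcript length had a Pearson's r of 0.74, and 0.38 without the 4, as a description across genes that share libraries and differ in base composition.

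Long transcripts in general were higher in R1 and R2, but by less. Among the 9583 genes with at least 5 CPM in the control the median ratio was 0.971, and among the 474 of these over 8 kb it was 1.36. By this ratio Mki67 ranked 2, Cenpe 3, Cenpf 6 and Top2a 297 of 9583, and Mki67 and Cenpf ranked 1 and 3 of the 474. The median difference between genes over 8 kb and genes up to 2 kb, each as log2 against the mean of all libraries, was 0.24 in D1, -0.30 in D2, 0.49 in R1 and 0.82 in R2, 0.0229 and -0.0027 in DN1 replicates 1 and 2, and between -0.52 and -0.04 in DN2a and DN2b. This long-transcript measure moved with the 4 genes in the control but did not separate the DN1 libraries, and its part in the values was not tested.

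Cell cycle genes outside the 43 showed both patterns. Of the other mitosis genes, the 6 with transcripts over 5 kb had a median ratio of R to D of 2.91, from 1.005 (Mad2l1) to 6.40 (Kif20b), and the 36 shorter ones 1.37, from 0.481 (Pttg1) to 5.20 (Smc4). Of the other replication genes, the 8 over 5 kb had a median of 2.07, up to 4.44 for Brca2, and the 27 shorter ones 1.12. Kif20b, a cytokinesis motor chosen as the extreme, was at 10.1, 2.90, 29.1 and 54.3 CPM in the control and at 31.2 and 7.03 CPM in DN1, much as Cenpe was. Anapc1, the scaffold of the APC/C, has a transcript of 8942 bases and stood at 166, 131, 128 and 177 CPM, a ratio of 1.02. It was named after its values were seen, as were Brca2, Mad2l1, Kif20b, Pttg1 and Smc4.

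**Figure D5:**
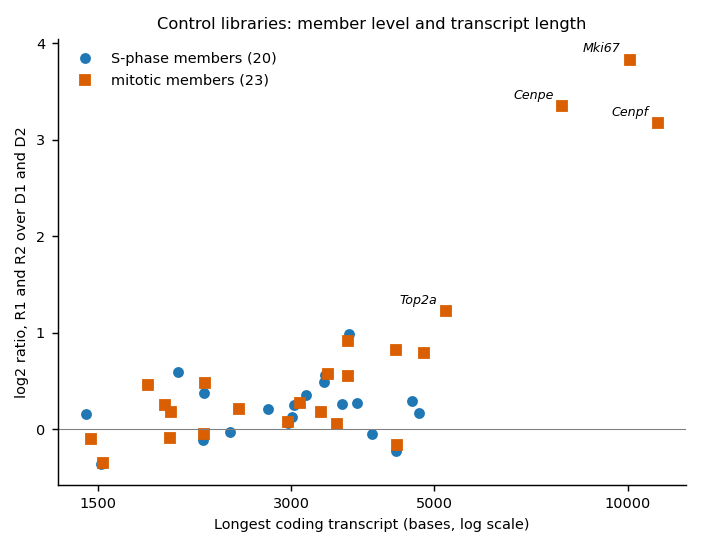
The log2 ratio of the summed CPM of control libraries R1 and R2 to that of D1 and D2 for each of the 43 members, against the length of the longest coding transcript in bases (log axis), with S-phase members as blue circles and mitotic members as orange squares. Cenpe, Cenpf, Mki67 and, less so, Top2a stand above all other members, which lie between -0.36 and 0.99.

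Without the 4 long members, the median of the mitotic members in DN2b over control turned from -0.13 to 0.20, and their other medians over control kept their sign. The 19 shorter mitotic members had a median log2FC over control of 0.42 in DN1, 0.71 in DN2a and 0.20 in DN2b. In DN2b over DN2a their median was -0.73, and 18 of 19 were negative. There 14 of 19 were lower in DN2b without overlap, as were 15.8% of all genes tested. The S-phase minus mitotic value of the 39 members was 0.25 to 0.41 in the 4 control libraries, and in the DN libraries 0.90 and 0.72 (DN2b), 0.47 and 0.36 (DN2a) and 0.45 and 0.83 (DN1). The SD among control libraries was 0.0719 against 0.314 with all members (n = 4), which follows from leaving out the members that differed most among them. The DN2b libraries were again above all control and DN2a libraries.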

How the data were processed

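The 10 RNA-seq libraries (TruSeq Stranded Total RNA, per the labels) were used, and the data analysed were whole-number read counts per gene deposited by the authors. The authors aligned reads of 36 bases to mm10 with TopHat2 and counted them with HTSeq in intersection-strict mode. The annotation and the strand setting of the counter are not given in the sources used here, so overlapping and antisense genes cannot be told apart from members. The 5 summary lines of each count file (20.5 to 41.0% of reads) were dropped, and multi-mapped reads (16.4 to 30.1%) were never counted. The filter of 1 CPM or more in 2 or more libraries kept 12221 of 24062 genes, which were scaled by TMM (factors 0.858 to 1.19) and tested with edgeR 4.0.16 (glmQLFit and glmQLFTest, R 4.3.3) in 1 model of 4 groups and 10 libraries without covariates, with Benjamini-Hochberg adjustment. Alternatives were DESeq2 1.42.0, library size scaling, other filters, 2 groups per fit, the year as a replicate block, the D or R controls alone, each library left out, a prior count of 2 in place of 0.125 for log2FC, a pseudocount of 0.1 in place of 1 CPM, and members up to 5 kb, the last chosen after seeing the data. The fit was tested on counts simulated with the common dispersion for every gene. Of 11907 genes, 200 were changed by a log2FC of 2 in DN2b. There edgeR recovered 36 against DN2a, 29 against DN1 and 82 against the control (0, 3 and 3 false calls). DESeq2 recovered 84, 69 and 121 (21, 19 and 34 false calls).

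Every one of the 43 members is given by level. A log2FC is given for members called and for the extremes of each comparison, and for other lists the counts and the called extremes. The members and lists were chosen with earlier results of these data known. No score over the members was tested. Pairing by year was checked on deviations from group means over 12221 genes, with r of 0.0853 (DN1 and DN2a), 0.303 (DN1 and DN2b) and 0.221 (DN2a and DN2b), and DN2a and DN2b share label dates. Depth limits precision through counting error, which was small beside the spread between replicates (common dispersion 0.189). Libraries of a group differed by far more than sampling noise. Whether they are separate mice or pools is not stated beyond independent isolates, so p-values measure the spread between these libraries.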

Additional observations from a re-analysis of the deposited data

Results flagged for a closer look

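Of 46 groups of values tested for a sample that stands apart (each member and 3 summary values in the 4 control libraries), 1 was singled out, where chance alone singles out about 1 in 20. Pcna was at 626 CPM in control library D1 and at 376 to 403 CPM in D2, R1 and R2, and the gap to the nearest library was 0.891 of the whole range, above Dixon's critical value for 4 samples. The other fork and licensing members were not high in D1, where Mcm7, Tyms and Tk1 had their lowest values of the 10 libraries, at 166, 44.7 and 36.6 CPM. Pcna remained above the control in every DN library with D1 included.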

How the results depend on the processing

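Over the tested log2FC of named members, 806 values under other settings kept their direction and side of the threshold, 117 kept the direction but were no longer called, 3 became called and 4 reversed. The reversed values were of uncalled genes, as 1 library was left out at a time: Mki67 in DN2a over DN1 ran from -1.98 to 0.54, E2f2 in DN2b over DN2a from -0.22 to 0.65, and Ccne2 in DN2b over DN1 from -0.28 to 2.10, with the reversals without DN1 replicate 1 (Mki67, Ccne2) or DN2b replicate 1 (E2f2, Ccne2 at -0.18). Members called in DN1 over control went from 10 to 16 with library size scaling and to 4 with D1 and D2 as controls, in DN2b over control from 12 to 6 with D1 and D2, and in DN2b over DN1 from 0 to 1 with DESeq2. In DN2b over control DESeq2 called 10 higher and 6 lower. Leaving out 1 library at a time gave 3 to 11 calls in DN1, 8 to 27 in DN2a and 5 to 14 in DN2b. The S-phase minus mitotic difference went from 0.37 to -0.16 (DN1 over control) and from 0.75 to 0.38 (DN2b over control) with medians over members, and leaving out 1 library gave 0.0437 to 0.69 for DN1 over control, -0.44 to 0.21 for DN2a over DN1 and 0.0522 to 0.70 for DN2b over DN1. The cause was not tested. The year as a replicate block left 0 members called in DN2a over DN1, DN2b over DN2a and DN2b over DN1, as without the block. In the simulated counts, with 2 libraries per stage, differences among stages were mostly missed. Every simulated gene had the common dispersion, so the share missed cannot be carried over to the members, whose spreads differ.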

Other observations

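The DN1 libraries disagreed within the G1/S genes in a way that the whole S-phase list did not show. In replicate 1 E2f8 was at 81.7 CPM and Ccne2 at 10.9 CPM, near or within the control values, and in replicate 2 they were at 27.6 and 56.9 CPM, near the DN2a values of 25.8 to 27.1 and 33.8 to 63.2 CPM. Chek1 (55.6 and 87.1 CPM) and Rrm1 (521 and 880 CPM) were above all control libraries in both. Replicate 1 is the one with 2588 CPM of neutrophil and 2401 CPM of mast cell and basophil markers. The part of these cells was not tested.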
